A study of Rattus norvegicus with 12 samples.

Results

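The family of miR-148 and miR-152 was followed through 12 small RNA libraries of cultured rat cortical neurons. Its members were chosen by name alone: every name in the count tables for miR-148a, miR-148b or miR-152 that carries an arm suffix. No threshold on a level or a difference entered that choice, but the family was picked for description with earlier results of these libraries known, so its p-values are read as a description of this table and not as independent evidence. The rule matched 6 of the 685 miRNA names, rno-miR-148a-3p, rno-miR-148a-5p, rno-miR-148b-3p, rno-miR-148b-5p, rno-miR-152-3p and rno-miR-152-5p, among 805 small RNA names in all. All 6 passed the filter on low counts, which kept 628 miRNA names and took the group labels into account, and the prefix rno (Rattus norvegicus) is dropped from here on.

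The neurons came from Sprague Dawley rat cortex at embryonic day 17 and were plated at 100000 cells per square centimetre. Every group received a lentivirus carrying a short hairpin RNA at 10 days in vitro and was lysed at 14 days in vitro. The hairpin was a non-targeting control in shNTC, was directed against Stau2 in shStau2, and against Pum2 in shPum2. Stau2 encodes Staufen2, a double-stranded RNA-binding protein, and Pum2 encodes Pumilio 2, which binds short motifs in mRNAs; the series title names RNP assembly of Argonaute proteins as the subject, and shPum2 stood as a further control for effects of any active hairpin. Each group had 4 libraries numbered 1 to 4 and described as biological replicates. Libraries held between 3836349 and 5415763 counts, and the depletion of the 2 target mRNAs was not analysed here because small RNA tables do not hold them.

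A miRNA hairpin is cut from a longer transcript and yields a duplex, of which a strand is loaded into an Argonaute protein while its partner is mostly degraded. The loaded strand finds mRNAs chiefly through its bases 2 to 8, the seed, and lowers their stability and translation. In this family the 3p strand is the guide, and the family is known from human and mouse cells for repressing mRNAs of DNA methyltransferases, among them Dnmt1. miR-148a is best known as an abundant miRNA of liver and of antibody-secreting cells, while in the RefSeq annotation of assembly GRCr8 the gene Mir148b lies within Copz1 and Mir152 within Copz2, which encode zeta subunits of the COPI coat of Golgi vesicles. No other gene spans Mir148a there.

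The mature sequences show why the 3 guides are treated as a family and why their separate counts carry some uncertainty. RefSeq sequences (assembly GRCr8) were matched by name for 5 of the 6 strands, and they are written 5′ to 3′ with the seed in capitals.
miR-148a-3p: uCAGUGCAcuacagaacuuug
miR-148b-3p: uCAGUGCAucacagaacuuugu
miR-152-3p: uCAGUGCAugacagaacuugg
miR-148a-5p: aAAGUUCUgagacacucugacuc
miR-152-5p: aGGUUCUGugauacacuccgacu
The 3 guides hold the same seed, and no other mature rat sequence in the RefSeq table holds it. Counted from the 5′ end over the 21 bases compared, miR-148a-3p and miR-148b-3p differ at 2 positions (C9U and U10C), miR-148a-3p and miR-152-3p at 3 (C9U, U10G and U20G), and miR-148b-3p and miR-152-3p at 2 (C10G and U20G). Each substitution gives the base of the first-named strand, the position, then the base of the second. With so few differences the authors' assignment may have moved some reads between the guides. The seeds of the 5p strands shown differ from each other and from that of the guides.

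The hairpin of Mir148a shows where both strands lie, with the 5p strand and then the 3p strand in capitals (GRCr8, minus strand of the chromosome).
Mir148a hairpin: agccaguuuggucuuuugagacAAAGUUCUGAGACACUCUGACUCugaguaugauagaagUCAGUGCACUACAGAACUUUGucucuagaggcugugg
In these 97 bases the 5p strand takes positions 23 to 45 and the 3p strand positions 61 to 81.

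A family with a shifted seed was set beside the guides. Bases 1 to 7 of miR-130a-3p, miR-130b-3p and miR-301b-3p are the same 7 letters that the guides carry at bases 2 to 8, shown here in capitals (RefSeq, GRCr8).
miR-130a-3p: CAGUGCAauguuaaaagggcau
miR-130b-3p: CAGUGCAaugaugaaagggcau
miR-301b-3p: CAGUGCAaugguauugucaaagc
Their own seed is therefore offset by a base from that of the guides.

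The family was expressed in every library at a moderate level. Together the 6 strands made up between 0.194 and 0.290% of each library's miRNA counts, or 8279 to 13237 counts. Levels are given as counts per 1000000 miRNA counts after scaling by trimmed mean of M-values (TMM-scaled CPM), which are shares of a library and not amounts per cell. In a culture that holds several cell types, fewer cells of a type and less RNA per cell cannot be told apart. The mature strands are nearly equal in length, so levels were not divided by length, but library preparation captures different sequences with different efficiency.

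Over the 12 libraries miR-148b-3p was the most abundant strand, at 1331 ± 76.6 CPM (SD, n = 12), and stood at place 65 of the 628 miRNA names. It was followed by miR-148a-3p at 725.8 ± 135.3 CPM (place 94) and by miR-152-3p at 251.7 ± 44.2 CPM (place 149). The partner strands lay far lower: miR-148b-5p at 29.9 ± 3.09 CPM (place 342), miR-148a-5p at 11.3 ± 3.26 CPM (place 438) and miR-152-5p at 3.04 ± 1.12 CPM (place 566). This order held in 12 of 12 libraries. The narrowest step among the guides was that from miR-148b-3p to miR-148a-3p, a level ratio of 1.49 to 2.42 within a library, and miR-148a-3p exceeded miR-152-3p by 2.18 to 3.84 times.

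**Figure D1:**
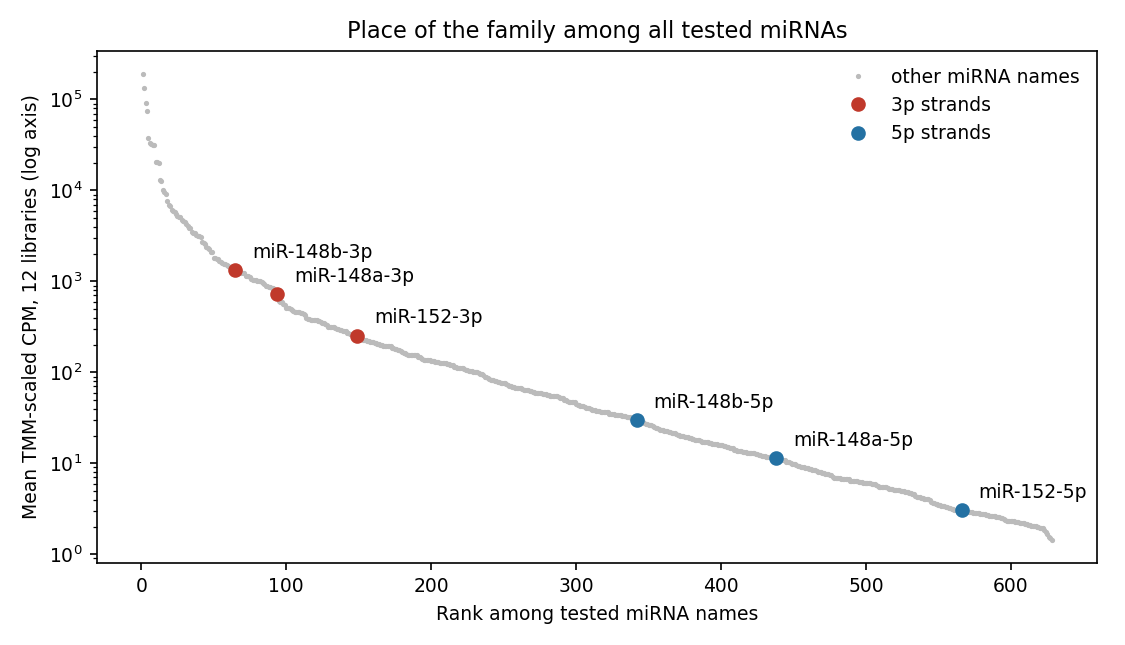
The mean level of each tested miRNA name over 12 libraries (TMM-scaled CPM, log axis) is plotted against its place in the order of levels, from the most abundant at place 1 to place 628. The 3 guide strands (red) stand at places 65, 94 and 149, and the 3 partner strands (blue) at places 342, 438 and 566.

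Each neighbour of a guide in that order lay within the larger SD of the pair, while miR-181b-5p and miR-676 lay beyond the smaller SD. Next to miR-148b-3p were miR-181b-5p at 1423 ± 146.0 CPM and miR-100-5p at 1322 ± 222.5 CPM. Next to miR-148a-3p were miR-434-5p at 751.8 ± 79.3 CPM above and miR-676 at 605.4 ± 38.5 CPM below. Next to miR-152-3p stood miR-183-5p at 257.1 ± 121.4 CPM and miR-182 at 245.9 ± 103.9 CPM, sensory-cell miRNAs whose own spread over the libraries was far wider than the step between them and miR-152-3p.

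As a share of the family's level, miR-148b-3p made up 51.1 to 62.7% in a library, miR-148a-3p 25.3 to 34.4%, miR-152-3p 8.80 to 12.5%, and the 3 partner strands together 1.55 to 2.24%. The mean share of miR-148b-3p was 55.7 ± 3.05% for shNTC, 59.3 ± 2.44% for shStau2 and 55.5 ± 4.22% for shPum2 (SD, 4 libraries each), so the groups differed by about their spread. The 6 strands summed to 2497 ± 197.4 CPM for shNTC, 2164 ± 131.2 CPM for shStau2 and 2396 ± 245.6 CPM for shPum2. Its range in shStau2 (1998 to 2315 CPM) overlapped that in shNTC (2252 to 2706 CPM).

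The guide miR-152-3p had the clearest difference of the family between shStau2 and shNTC, and it passed the test only once libraries were paired by number. For libraries 1 to 4 of shNTC its levels were 285, 314, 311 and 213.5 CPM, for shStau2 234.6, 233, 221 and 176 CPM, and for shPum2 304, 237, 271 and 220.1 CPM. Library 4 was the lowest of every group, and shNTC library 4 lay below 3 of the 4 shStau2 libraries, so the groups overlapped. The group means were 280.8 ± 46.7, 216.2 ± 27.6 and 258.0 ± 37.1 CPM (SD, n = 4).

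Between shStau2 and shNTC the fitted log2 fold change of miR-152-3p was -0.38 (SE 0.14, 95% interval -0.68 to -0.07), a level 0.770 times that of shNTC. In edgeR's quasi-likelihood test over all 628 miRNAs it did not pass (adjusted p = 0.294). Within each replicate number the shStau2 library was the lower one, in 4 of 4 cases, by 0.28, 0.43, 0.49 and 0.28 on the log2 scale for numbers 1 to 4. With the replicate number as a block in the same test, miR-152-3p fell (log2 fold change -0.37, SE 0.09, 95% interval -0.56 to -0.18, adjusted p = 0.0186). DESeq2 with the block called it too (adjusted p = 0.00319). In edgeR's blocked test the call held without number 2 (adjusted p = 0.0374) and ended without number 1 (adjusted p = 0.0534), number 3 (adjusted p = 0.131) or number 4 (adjusted p = 0.0956), where the log2 fold change stayed between -0.41 and -0.33.

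In shPum2 against shNTC the log2 fold change of miR-152-3p was -0.12 (SE 0.14, 95% interval -0.43 to 0.18, adjusted p = 0.982), with 2 of 4 pairs lower. In shStau2 against shPum2 it was -0.25 (SE 0.14, 95% interval -0.56 to 0.05, adjusted p = 0.572), with 4 of 4 pairs lower, and with the block -0.26 (SE 0.09, adjusted p = 0.128). So miR-152-3p did not pass against shPum2 in either fit. The comparisons share libraries with each other and are not independent views of the same strand.

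The guide miR-148a-3p was lower in shStau2 than in shNTC by a like amount, and did not pass. Its levels were 758, 927, 793 and 662 CPM in shNTC libraries 1 to 4, 647, 618, 689.9 and 532 CPM in shStau2, and 834, 518, 886 and 845.5 CPM in shPum2. The shStau2 and shNTC ranges met only where shStau2 library 3 lay above shNTC library 4. The shPum2 group held the lowest value of all 12 libraries, library 2, while its other 3 libraries lay above all of shStau2.

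The group means of miR-148a-3p were 784.9 ± 109.6 CPM for shNTC, 621.7 ± 66.8 CPM for shStau2 and 770.9 ± 169.9 CPM for shPum2. For shStau2 against shNTC the log2 fold change was -0.34 (SE 0.15, 95% interval -0.66 to -0.01, adjusted p = 0.405) and the level was lower in 4 of 4 pairs. With the block it was -0.34 (SE 0.16, adjusted p = 0.238), so it did not pass in either fit. For shPum2 against shNTC the log2 fold change was -0.03 (SE 0.15, 95% interval -0.35 to 0.30, adjusted p = 0.982). For shStau2 against shPum2 it was -0.31 (SE 0.15, 95% interval -0.63 to 0.01, adjusted p = 0.524).

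The values of miR-148a-3p against shPum2 depended much on shPum2 library 2. Without shPum2 library 2, miR-148a-3p had a log2 fold change of 0.14 for shPum2 against shNTC (SE 0.11, adjusted p = 0.976) and of -0.49 for shStau2 against shPum2 (SE 0.11, adjusted p = 0.0698). The blocked fit without number 2 leaves out library 2 of every group. There miR-148a-3p passed in shStau2 against shPum2 (log2 fold change -0.49, adjusted p = 0.00177), and so did miR-152-3p (-0.35, adjusted p = 0.0268). That fit called 51 miRNAs in this comparison, beside 25 with all numbers. Without the block and with only shPum2 library 2 left out, miR-152-3p had -0.32 (adjusted p = 0.342).

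The most abundant guide, miR-148b-3p, varied least of the family over the 12 libraries. Its levels were 1356, 1404, 1448 and 1337 CPM in shNTC libraries 1 to 4, 1222, 1298, 1358 and 1252 CPM in shStau2, and 1239, 1256, 1426 and 1373 CPM in shPum2. Its highest level was 1.19 times its lowest over the 12 libraries, against 1.79 for miR-148a-3p and 1.79 for miR-152-3p. Within groups its coefficient of variation was 3.61% in shNTC, 4.63% in shStau2 and 6.84% in shPum2, against 14.0, 10.7 and 22.0% for miR-148a-3p and 16.6, 12.8 and 14.4% for miR-152-3p. Within shPum2 the partner strand miR-148b-5p had a lower one, 3.603%.

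Between shStau2 and shNTC the log2 fold change of miR-148b-3p was -0.11 (SE 0.08, 95% interval -0.28 to 0.06, adjusted p = 0.632), with 4 of 4 pairs lower by 0.09 to 0.15 on the log2 scale. In shPum2 against shNTC it was -0.07 (SE 0.08, 95% interval -0.23 to 0.10, adjusted p = 0.982), and in shStau2 against shPum2 -0.05 (SE 0.08, 95% interval -0.21 to 0.12, adjusted p = 0.863). The lowest bound of these intervals was -0.28.

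**Figure D2:**
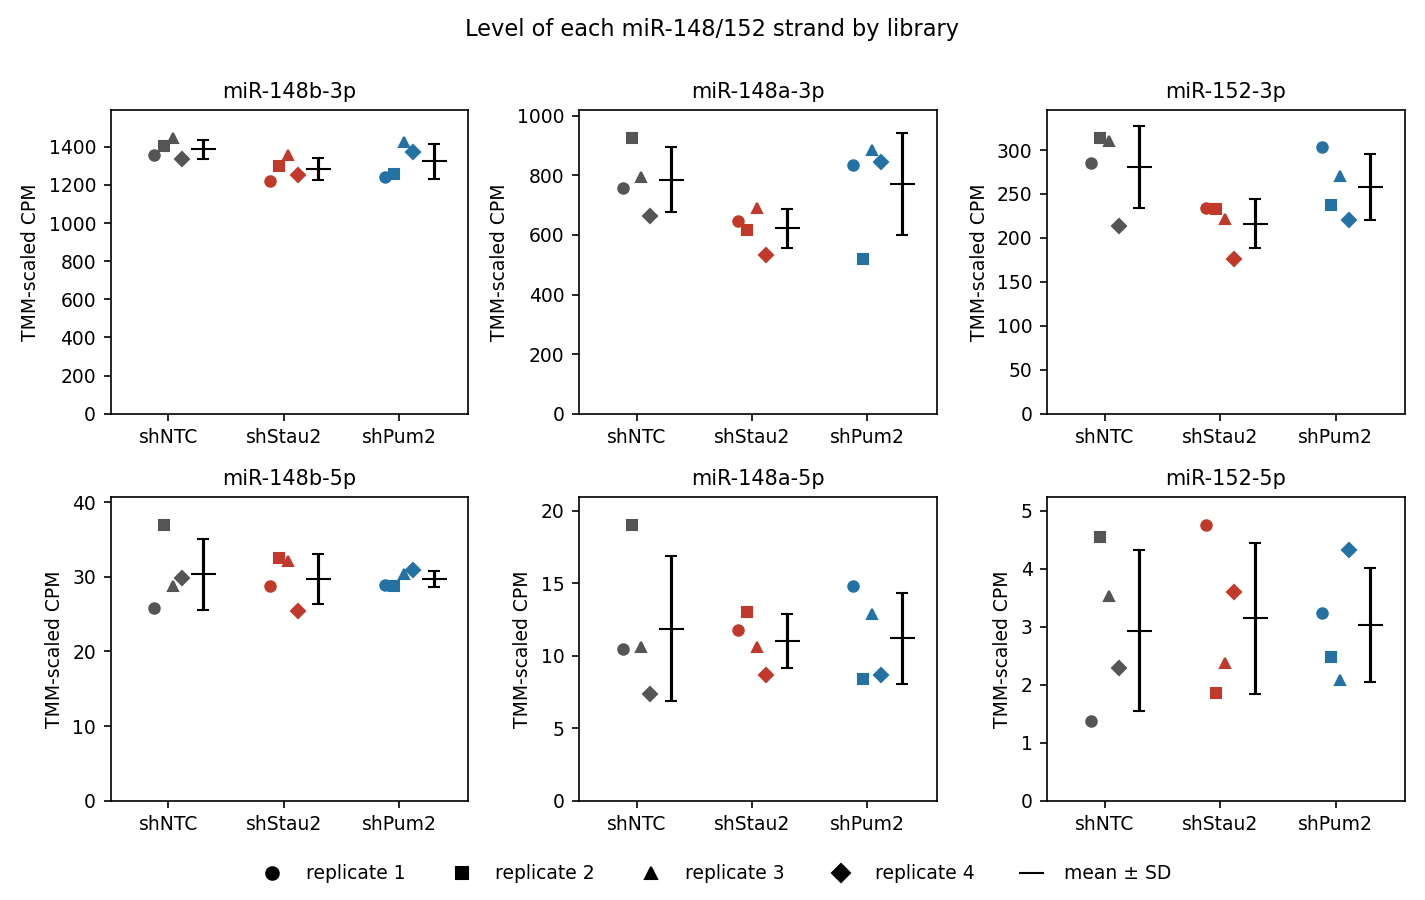
The 6 panels plot the TMM-scaled CPM of each strand in every library, with symbols for replicate numbers 1 to 4 and the mean ± SD of each group (n = 4) beside the points; every axis starts at 0. The shStau2 points of miR-148a-3p (532 to 689.9 CPM) and miR-152-3p (176 to 234.6 CPM) lie low in their panels, the shPum2 library 2 of miR-148a-3p lies apart at 518 CPM, and miR-148a-5p and miR-152-5p spread widely within groups.

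Whether the guides differed from each other in response was tested through count ratios within a library, which need no scaling factor. The log2 ratio of miR-152-3p to miR-148b-3p was -2.58 ± 0.20 in shStau2 and -2.32 ± 0.22 in shNTC (SD, n = 4), a difference of -0.26 (two-sided exact permutation p = 0.171, adjusted p = 0.686 over 12 ratio tests). For miR-148a-3p to miR-148b-3p it was -1.05 ± 0.14 against -0.83 ± 0.17, a difference of -0.22 (exact permutation p = 0.0857, adjusted p = 0.686). The corresponding differences between shStau2 and shPum2 were -0.21 (exact permutation p = 0.286) and -0.24 (exact permutation p = 0.2), both with adjusted p = 0.686. The smallest p that 4 libraries against 4 allow is 0.0286, which limits this unpaired test. Within replicate numbers 1 to 4 the log2 ratio of miR-152-3p to miR-148b-3p was lower in shStau2 than in shNTC by 0.13, 0.31, 0.40 and 0.19, and that of miR-148a-3p to miR-148b-3p by 0.08, 0.47, 0.11 and 0.22. Both differences thus had the same sign in 4 of 4 pairs, and a two-sided exact sign-flip test of the pairs gave each the smallest p that 4 pairs allow, 0.125 (adjusted p = 0.5 over 12 tests). miR-152-3p and miR-148a-3p had count ratios of 0.357 ± 0.0321 for shNTC, 0.348 ± 0.0267 for shStau2 and 0.347 ± 0.0853 for shPum2.

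The partner strands showed no difference past the threshold, and their low counts limit what could be seen. For miR-148b-5p the levels were 25.8, 37.0, 28.8 and 29.8 CPM in shNTC, 28.8, 32.5, 32.2 and 25.4 CPM in shStau2, and 28.9, 28.7, 30.3 and 30.9 CPM in shPum2, from 106 to 171 counts a library. Its means lay within 1 SD of each other, at 30.4 ± 4.74, 29.7 ± 3.30 and 29.7 ± 1.07 CPM. Its log2 fold changes were -0.03 in shStau2 against shNTC (95% interval -0.31 to 0.25, adjusted p = 0.965), -0.03 in shPum2 against shNTC (95% interval -0.31 to 0.25, adjusted p = 0.982) and 0.00 in shStau2 against shPum2 (95% interval -0.28 to 0.28, adjusted p = 0.999).

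For miR-148a-5p the levels ranged from 7.38 to 19.0 CPM in shNTC, 8.64 to 13.0 CPM in shStau2 and 8.42 to 14.8 CPM in shPum2, from 29 to 88 counts a library. shNTC library 2 held both its highest level and that of its partner miR-148a-3p. The log2 fold changes of miR-148a-5p were -0.11 in shStau2 against shNTC (95% interval -0.68 to 0.45, adjusted p = 0.922), -0.09 in shPum2 against shNTC (-0.65 to 0.48, adjusted p = 0.982) and -0.03 in shStau2 against shPum2 (-0.60 to 0.54, adjusted p = 0.989).

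The rarest strand, miR-152-5p, had 7 to 21 counts a library and levels of 1.38 to 4.76 CPM. The 7 counts of shNTC library 1 carry an exact 95% Poisson interval of 2.81 to 14.4 counts, and the 21 of shStau2 library 1 one of 13.0 to 32.1, so much of its spread is of the size of counting error, which is all that such intervals cover. Its log2 fold changes were 0.10 (95% interval -0.71 to 0.91, adjusted p = 0.965), 0.05 (-0.77 to 0.86, adjusted p = 0.982) and 0.05 (-0.76 to 0.86, adjusted p = 0.989) in shStau2 against shNTC, shPum2 against shNTC and shStau2 against shPum2.

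Read against all tested miRNAs, the family's calls were few. Without the block, 0 of its 6 strands were called in shStau2 against shNTC, where 2 of 628 miRNAs (0.318%) were called and 71 had an unadjusted p under 0.05, miR-148a-3p and miR-152-3p among them. In shPum2 against shNTC 0 of 6 were called beside 0 of 628 (0%), with 9 miRNAs at an unadjusted p under 0.05, and DESeq2 called 0 as well. In shStau2 against shPum2 0 of 6 were called beside 3 of 628 (0.478%), with 59 at an unadjusted p under 0.05. With the block, 1 of 6 was called in shStau2 against shNTC, where 39 of 628 (6.21%) were, 0 in shPum2 against shNTC, where 1 of 628 (0.159%) was, and 0 in shStau2 against shPum2, where 25 of 628 (3.98%) were. A single call among 6 strands gives no share that can be set firmly above that background.

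Of the 6 strands, 0 had every shStau2 library below every shNTC library, which 33 of 628 miRNAs (5.25%) had. The same held for shPum2 below shNTC, where 5 of 628 (0.796%) did, and for shStau2 below shPum2, where 17 of 628 (2.71%) did. The median log2 fold change of the 6 strands was -0.11 in shStau2 against shNTC beside 0.00 over all 628, -0.05 in shPum2 against shNTC beside 0.00, and -0.04 in shStau2 against shPum2 beside 0.01.

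**Figure D3:**
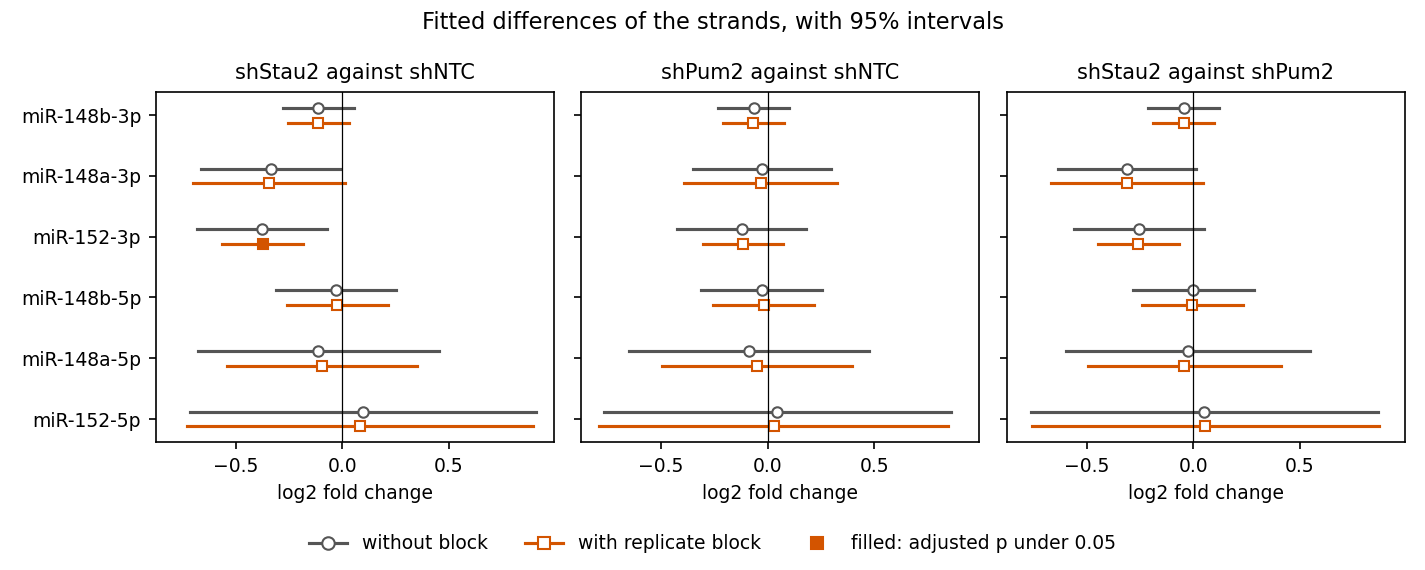
Fitted log2 fold changes of the 6 strands with their 95% intervals are shown for the 3 comparisons, without (grey circles) and with (orange squares) the replicate number as a block; a filled symbol marks an adjusted p under 0.05. The only filled symbol is that of miR-152-3p in shStau2 against shNTC with the block (-0.37), and the intervals are widest for miR-152-5p.

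Both strands of a hairpin could be set against each other within a library. The count of miR-148b-3p per count of miR-148b-5p was the steadiest of these ratios, at 46.4 ± 6.47 for shNTC, 43.5 ± 4.02 for shStau2 and 44.5 ± 1.79 for shPum2 (SD, 4 libraries each). For miR-148a it was 71.5 ± 16.98, 57.3 ± 7.79 and 71.1 ± 18.5, and for miR-152 114.2 ± 62.4, 79.3 ± 37.3 and 92.7 ± 32.6. The 3p strand thus exceeded its partner by at least 38.0 times in every library for miR-148b, 47.6 times for miR-148a and 48.9 times for miR-152.

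The strand ratios overlapped between groups. The log2 ratio of the miR-148b strands differed by -0.09 between shStau2 and shNTC (two-sided exact permutation p = 0.457, adjusted p = 0.784) and by -0.05 between shPum2 and shNTC (exact permutation p = 0.686, adjusted p = 0.823). That of the miR-152 strands differed by -0.51 between shStau2 and shNTC (exact permutation p = 0.286, adjusted p = 0.686), with an SD of 0.66 in each of these groups. The ratio of the miR-148a strands was not among the ratios tested. In shStau2 against shNTC its log2 differences were -0.40, -0.04, -0.20 and -0.54 for numbers 1 to 4, lower in 4 of 4 pairs. The miR-148b and miR-152 ratios were lower in 2 of 4. Against shPum2 the miR-148a ratio was lower in 4 of 4 pairs and the others in 3 of 4. Capture of each strand in library preparation differs by sequence, so a ratio can be compared between groups but is not a ratio of molecules in the cell.

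**Figure D4:**
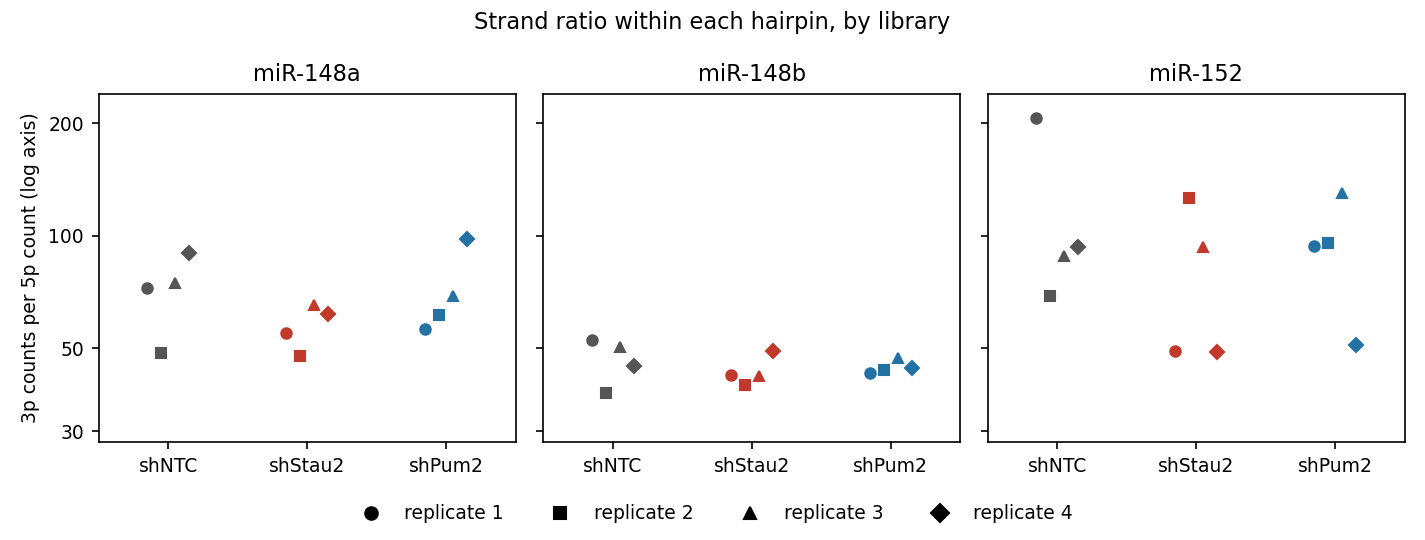
Counts of the 3p strand per count of the 5p strand are plotted on a log axis for miR-148a, miR-148b and miR-152 in each library, with symbols for replicate numbers 1 to 4. All points lie between 38.0 and 206.6, those of miR-148b closest together (38.0 to 52.5) and those of miR-152 widest apart (48.9 to 206.6).

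Over the 12 libraries the guides' levels moved partly together. Pearson's r of the log2 CPM was 0.71 between miR-148a-3p and miR-152-3p, 0.66 between miR-148a-3p and miR-148b-3p, and 0.43 between miR-148b-3p and miR-152-3p (n = 12 libraries, which share groups, replicate numbers and scaling, so r is a description). Between the strands of a hairpin r was 0.58 for miR-148a, 0.39 for miR-148b and -0.02 for miR-152.

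The miRNA most like miR-152-3p over the libraries was miR-29a-3p (r = 0.90, n = 12), followed by miR-3556b (0.90) and miR-542-3p (0.88). For miR-148a-3p these were miR-455-5p (0.86), miR-542-3p (0.84) and miR-29b-3p (0.81), so the leading names of both guides held a miR-29 strand and miR-542-3p. For miR-148b-3p they were let-7i-5p (0.79), miR-322-5p (0.77) and miR-490-5p (0.71). The partner strands had miR-34c-5p (0.76), miR-20a-3p and miR-542-3p (both 0.72) for miR-148a-5p, miR-3569 (0.79), miR-192-5p (0.75) and miR-10b-5p (0.68) for miR-148b-5p, and miR-452-5p, miR-19b-1-5p (both 0.70) and miR-3547 (0.65) for miR-152-5p. Each name was picked as among the highest r of all tested miRNAs, and part of each comes from group and replicate differences that many miRNAs share.

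Other miRNAs that are known, from human or mouse cells, to repress DNA methyltransferase mRNAs were followed as a list of 9, all of them tested. Of these, 1 fell in shStau2 against shNTC and in shStau2 against shPum2, miR-29b-3p (log2 fold change -1.16, adjusted p = 0.00911, and -1.0, adjusted p = 0.0349), and 0 passed in shPum2 against shNTC. Without shStau2 library 3 none of the list was called in shStau2 against shNTC, and in shStau2 against shPum2 none was called without any of 9 libraries in turn. With the block miR-29a-3p fell as well in shStau2 against shNTC (-0.68, adjusted p = 0.00374), so that 2 of the list were called there and 1 against shPum2. Over all miRNAs, shStau2 against shNTC had 2 of 628 called (0.318%) without the block and 39 (6.21%) with it. For shStau2 against shPum2 these were 3 of 628 (0.478%) and 25 (3.98%). These blocked counts became 0 in shStau2 against shNTC without number 4, and 0 in shStau2 against shPum2 without number 1, 3 or 4, with 2 without number 2. The most abundant, miR-29a-3p, ranged from 5878 to 8740 CPM in shNTC and 3388 to 5136 CPM in shStau2, and the next, miR-342-3p, from 4578 to 5392 CPM and 5254 to 6220 CPM (log2 fold change 0.19, adjusted p = 0.509). The list's median log2 fold change was -0.19, 0.02 and -0.19 for shStau2 against shNTC, shPum2 against shNTC and shStau2 against shPum2, beside medians over all miRNAs of 0.00, 0.00 and 0.01.

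Of the 4 shifted-seed relatives, miR-130a-3p, miR-130b-3p, miR-301a-3p and miR-301b-3p, 0 passed in any of the 3 comparisons, with or without the block. miR-130a-3p, the most abundant, stood at 1061 ± 111.9 CPM in shNTC, 1018 ± 39.4 CPM in shStau2 and 1122 ± 119.2 CPM in shPum2, and so near the level of miR-148b-3p. miR-301a-3p stood at 202.1 ± 60.0, 189.3 ± 13.0 and 244.4 ± 65.4 CPM. Their median log2 fold change in shStau2 against shNTC was 0.02.

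Markers of cell types were read beside these results. The list of neurons had the highest sum of these lists, 334550 to 385665 CPM in shNTC, led by miR-9a-5p and miR-128-3p. Of its 11 members 0 passed in shStau2 against shNTC in either fit. For astrocytes or dividing glia, the 7 members summed to 7535 to 11150 CPM in shNTC and 5353 to 7415 CPM in shStau2. In shPum2 the sum was 6470 to 8796 CPM. With the block 4 of 7 fell in shStau2 against shNTC (miR-21-3p, miR-21-5p, miR-23a-3p and miR-27a-3p), and the rest were not called. In that fit 39 of 628 miRNAs (6.21%) were called. Without the block 0 of the 7 were called. Its most abundant members were miR-21-5p and miR-24-3p. The uncalled members of this list include miR-449a-5p and miR-143-3p, the latter also listed for vessels or mesenchyme and for DNA methyltransferase mRNAs. miR-449a-5p stood at 948.2 ± 483.5 CPM in shNTC and 932.8 ± 444.8 CPM in shStau2. miR-143-3p stood at 117.4 ± 90.1 and 102.7 ± 48.1 CPM. Sums for blood or microglia were 199.1 to 397.5 CPM in shNTC and 142.0 to 274.6 CPM in shStau2, with miR-155-5p called with the block among 5 tested of 8, led by miR-155-5p and miR-146a-5p, and with the red-cell miRNA miR-451-5p at 0 in 8 libraries and miR-142-5p at 0 in 4. The list of vessels or mesenchyme also holds the muscle-type miR-206-3p. Its sums were 876.6 to 1141 CPM in shNTC and 743.5 to 985.2 CPM in shStau2, with miR-126a-5p called with the block among 9. It was led by miR-126a-3p and miR-206-3p. For oligodendrocytes (4 members, led by miR-338-3p and miR-219a-5p) and liver or gut epithelium (6 members, led by miR-192-5p and miR-194-5p) 0 were called, with sums of 222.7 to 341.3 against 254.9 to 281.9 CPM and 459.2 to 612.9 against 484.3 to 579.4 CPM. With the block, the neuronal miR-7a-5p rose in shStau2 against shPum2 (log2 fold change 0.24, adjusted p = 0.0348), and miR-142-3p, miR-155-5p and miR-206-3p fell. Over all miRNAs 25 of 628 (3.98%) were called in that comparison with the block. The neuronal list had 0 calls there without number 1, 3 or 4, that of blood or microglia 1 in place of 2 without any 1 number, and that of vessels or mesenchyme 0 without number 1 and 2 without number 2. In shStau2 against shNTC the vessel list had 0 calls without number 4. The glial list had 1 call in shPum2 against shNTC with the block, a fall of miR-23a-3p, beside 1 of 628 miRNAs (0.159%). That fall was no longer called once any 1 number was left out. Without number 1, 3 or 4 the list had 0 calls, and without number 2 its 1 call was a rise. In shStau2 against shPum2 the glial list had 0 calls with the block, and 4 without number 2, all of them falls. The list of oligodendrocytes had 0 calls with the block, and 1 without number 2, a rise. The 4 glial calls in shStau2 against shNTC became 1 without number 4. The part of other cell types in the lower level of miR-152-3p was not tested.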

How the data were processed

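The authors deposited a table of unnormalised counts for each library, with a row for every small RNA name. Per the labels' protocols, RNA was isolated as a batch (RNA integrity number 9.5) and libraries carried unique molecular identifiers. The aligner, the counter and any use of the identifiers were not given in the sources used here. Rnor 6.0 is the build, as the submitters' processing notes state. If reads rather than molecules were counted, amplification copies add to the apparent depth.

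The 685 miRNA names of all 12 libraries were fitted jointly by group with edgeR 4.0.16 in R 4.3.3 (TMM factors, filterByExpr by group, robust quasi-likelihood test). P-values are two-sided and Benjamini-Hochberg adjusted over the 628 names tested, and called means an adjusted p under 0.05. SEs and 95% intervals come from the F statistic of that fit. Log2 CPM for correlations used a prior count of 2. Ratios within a library used a pseudocount of 0.5 and exact permutation tests (sign-flip tests for pairs) in scipy 1.17.1. A floor of 3 counts corresponds to 0.554 to 0.782 CPM. Only the edgeR fit without the block was tested on simulated data. The changes simulated were larger than those of the family, and no effect of replicate number was drawn. The blocked fit, DESeq2 and the ratio tests were not tested in this way.

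Replicate numbers were checked for pairing through correlations, across miRNAs, of each library's deviation from its group mean. Libraries that share a number gave r of 0.36 to 0.57 in 12 pairs, above the limit of 0.1, and for the 36 others -0.41 to 0.14, so the numbers pair the libraries; what a number stands for is not given in the labels. The main fit has no block, and blocked values stand beside results that they change. Alternatives were other scaling factors, no filter, DESeq2 1.42.0, piRNA names included, the 8 libraries compared, and each library left out. Leaving out each number under the block was added after seeing the data.

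Members and lists were chosen with earlier results of these data known. Names in the text are the family strands, the 3 most like miRNAs and the neighbours in level of each, and from each list the called and the 2 most abundant members. Outside this rule, the text also names miR-130b-3p and miR-301b-3p, to show their sequences, and miR-451-5p and miR-142-5p, as markers at 0 in some libraries, chosen after their values were seen. miR-449a-5p and miR-143-3p are named too, as uncalled members of the glial list, also after their values were seen. miR-148a-5p matches the naming rule and was added once the tables were read. Mature sequences came from RefSeq (GRCr8).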

Additional observations from a re-analysis of the deposited data

Results flagged for a closer look

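The level of miR-148a-3p in shPum2 library 2 was 518.3 CPM, against 834 to 886 CPM in the other 3 libraries of its group, a gap wide enough to stand apart by Dixon's criterion for 4 samples. It was the only one of the family's 18 strand-by-group sets to do so (5.56%), beside 108 of 1884 sets over all tested miRNAs (5.73%); chance alone flags about 1 set in 20. The count behind it was 2092, and miR-152-3p (237 CPM) and miR-148b-3p (1256 CPM) of the same library lay above the lowest of their group. The partner strand miR-148a-5p was lowest of its group there too, at 8.42 CPM (34 counts), close to 8.65 CPM in library 4. So was miR-148b-5p at 28.7 CPM, close to 28.9 CPM in library 1, while miR-152-5p (2.48 CPM) was not.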

How the results depend on the processing

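The sign of miR-152-3p and of miR-148b-3p was negative in all 3 comparisons under every alternative run, and that of miR-148a-3p in both comparisons with shStau2. For shStau2 against shNTC the log2 fold change of miR-152-3p ranged from -0.49 to -0.29 when 1 library was left out. None of these left-out-library fits called any of the 6 strands, and their adjusted p for miR-152-3p ran from 0.165 to 0.594.

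With the replicate number as a block, 39 miRNAs were called in shStau2 against shNTC, 1 in shPum2 against shNTC and 25 in shStau2 against shPum2, and 1 strand of the family in the first of these, miR-152-3p. DESeq2 called 18 miRNAs in shStau2 against shNTC and 7 in shStau2 against shPum2 without the block. With the block, DESeq2 called 38, 2 and 34 miRNAs in shStau2 against shNTC, shPum2 against shNTC and shStau2 against shPum2, and 1 strand of the family in shStau2 against shNTC (miR-152-3p, adjusted p = 0.00319). In shStau2 against shPum2, 0 miRNAs were called with upper-quartile factors and 0 with the 8 libraries compared. Leaving out 1 library gave 1 to 3 calls in shStau2 against shNTC (1 without shStau2 library 3) and 0 to 4 in shStau2 against shPum2 (0 without shNTC library 1 or 3, shStau2 library 2, 3 or 4, or shPum2 library 1, 3 or 4). The cause of these shifts was not tested.

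Leaving out each replicate number under the block, an alternative chosen after seeing the data, gave 23, 23, 27 and 5 calls in shStau2 against shNTC without numbers 1 to 4, and 6, 51, 7 and 10 in shStau2 against shPum2. Without number 2 it called 2 miRNAs in shPum2 against shNTC, 1 strand of the family in shStau2 against shNTC and 2 in shStau2 against shPum2.

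Reversed signs lay with the 5p strands and with miR-148a-3p in shPum2 against shNTC, all of them near 0 or with wide intervals. For miR-148b-5p in shStau2 against shPum2 the log2 fold change turned to -0.00971 with RLE factors, -0.0587 with library totals only, -0.00896 with no filter, -0.00957 with DESeq2, -0.0195 with 8 libraries, -0.00445 with the block and -0.0148 with DESeq2 and the block. In the same comparison that of miR-152-5p was -0.0101 with library totals only, and that of miR-148a-5p was 0.00621 with upper-quartile factors.

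With the block in shStau2 against shNTC, the log2 fold change of miR-152-5p was -0.45 without number 1 and -0.0649 without number 4, that of miR-148a-5p 0.12 without number 2, and that of miR-148b-5p 0.0389 without number 2 and 0.0331 without number 4. In shPum2 against shNTC it was -0.25 and -0.27 for miR-152-5p without numbers 1 and 4, and without number 2 it was 0.24 for miR-148a-3p, 0.36 for miR-148a-5p and 0.12 for miR-148b-5p. In shStau2 against shPum2 it was 0.0546 and 0.0445 for miR-148a-5p without numbers 1 and 3, -0.0238, -0.0792 and -0.0440 for miR-148b-5p without numbers 1, 2 and 3, and -0.20 for miR-152-5p without number 1.

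With 1 library left out, log2 fold changes in shStau2 against shNTC ranged from -0.27 to 0.21 for miR-148a-5p, -0.10 to 0.0790 for miR-148b-5p and -0.18 to 0.38 for miR-152-5p. In shPum2 against shNTC they ranged from -0.10 to 0.14 for miR-148a-3p, -0.25 to 0.25 for miR-148a-5p, -0.0988 to 0.0976 for miR-148b-5p and -0.20 to 0.35 for miR-152-5p. In shStau2 against shPum2 they ranged from -0.16 to 0.12 for miR-148a-5p, -0.0474 to 0.0643 for miR-148b-5p and -0.22 to 0.28 for miR-152-5p. Differences in log2 ratio between shPum2 and shNTC ranged from -0.0572 to 0.18 for miR-148a-3p to miR-148b-3p, -0.16 to 0.0431 for miR-152-3p to miR-148b-3p, -0.14 to 0.0125 for the miR-148b strands and -0.42 to 0.0800 for the miR-152 strands, and between shStau2 and shPum2 from -0.0991 to 0.000988 for the miR-148b strands. The other 390 log2 fold changes and 110 ratio differences kept their sign and side of the threshold, and 5 log2 fold changes kept their sign and newly passed.

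Depth limits the 5p strands, above all miR-152-5p with 7 to 21 counts a library, while the guides' 733 counts or more leave the spread between libraries as the limit. The meaning of a replicate number is not given, so what the block removes cannot be named.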
